A study of Mus musculus with 2 samples.

Results

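The genes described here are 10 members of the BCL2 family of survival and death regulators, *Mcl1*, *Bcl2*, *Bcl2l1*, *Bcl2a1b*, *Bax*, *Bak1*, *Bid*, *Bcl2l11*, *Bbc3* and *Pmaip1*. They were taken by symbol, and all 10 were found among the 37451 genes of the expression table. RNA-Seq was performed on bone marrow-derived macrophages (BMDMs), which are primary cells grown from marrow with CSF-1, the growth factor of the macrophage lineage. One group was WT C57BL/6, and the other was TTP-deficient (ΔM), from C57BL/6 TTP fl/fl LysMCre mice. These carry loxP-flanked alleles of *Zfp36*, the gene of TTP, and a Cre whose expression follows that of lysozyme M in the myeloid lineage, so that other lineages keep the gene. The WT mice were littermates, and all mice were 7 to 9 weeks old. Both cultures received 100 μM 4-thiouridine, a uridine analog that is built into new RNA, for 16 h and then 10 ng/ml LPS, the bacterial cell wall component sensed by TLR4, for 6 h. The time is that of the treatment protocol, as the sample titles carry the tag LPS7 with no explanation. No unstimulated or unlabeled library was analysed here, so that every level below is a level under both agents. There was 1 library per genotype, so that no difference has a replicate check or a p-value, and the number of mice or cultures behind each library is not given in the sources used here.

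BCL2 family proteins govern the permeability of the outer mitochondrial membrane. The effectors BAX and BAK form the pores through which cytochrome c leaves mitochondria, the pro-survival proteins MCL1, BCL-XL (from *Bcl2l1*), BCL2 and A1 (from the *Bcl2a1* genes) hold the effectors in check, and the BH3-only proteins BIM (from *Bcl2l11*), BID, PUMA (from *Bbc3*) and NOXA (from *Pmaip1*) bind the pro-survival proteins or activate the effectors. In macrophages, LPS induces A1 through NF-κB, and MCL1 is a protein with a short life. TTP binds AU-rich elements in 3′ UTRs and brings about the decay of the bound mRNA, and the comparison of WT with ΔM cells asks which transcripts differ in its absence.

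Levels are given in FPKM, fragments scaled to exon length and to the mapped fragments of the library, which allows levels of different genes to be set beside each other within a library. The depth was estimated here from the steps between low FPKMs at about 36800000 fragments in WT and 32700000 in ΔM. From it follow the 95% counting intervals given in parentheses, which are approximate and cover counting error only. The targeted gene *Zfp36* had a WT level of 65.3 FPKM and a ΔM level of 16.7 FPKM, a ratio of 0.256. Its transcript was lower in the library labelled ΔM but still detected, and which part of the gene the loxP sites flank is not given in the sources used here. All 8 macrophage markers found in the table were at 71.2 FPKM or more in both libraries. They summed to 4070 FPKM in WT against 2933 FPKM in ΔM. The 7 other than *Lyz2* summed to 1589 FPKM in WT against 1577 FPKM in ΔM. Of 33 markers of other cell types, 3 reached 1 FPKM in either library and 11 were listed at 0 in both, and their sum was 56.2 FPKM in WT against 104.6 FPKM in ΔM. The highest of them, *S100a8*, a calcium-binding protein of neutrophils and activated macrophages, had a WT level of 50.7 FPKM and a ΔM level of 100.02 FPKM, while *S100a9*, *Ly6g*, *Elane* and *Ngp* were listed at 0 in both.

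The 10 genes covered a wide span of levels in WT BMDMs. *Bak1* was the highest, followed by *Bax*, *Mcl1*, *Bcl2l1*, *Bcl2a1b*, *Bid*, *Bcl2l11*, *Bbc3*, *Pmaip1* and *Bcl2*. The counting intervals of neighbours in this order overlapped in 0 of 9 pairs. In ΔM BMDMs the order was the same except that *Bid* stood above *Bcl2a1b*, and the intervals of this pair overlapped. The place of *Bcl2a1b* is uncertain, because part of its sequence occurs in other copies and reads with several matches were discarded. Set among 8078 protein-coding genes whose mean level was 1 FPKM or more, *Bak1* stood at percentile 95.5 of WT levels, *Mcl1* at percentile 89.4 and *Bcl2l11* at percentile 56.5.

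**Figure D1:**
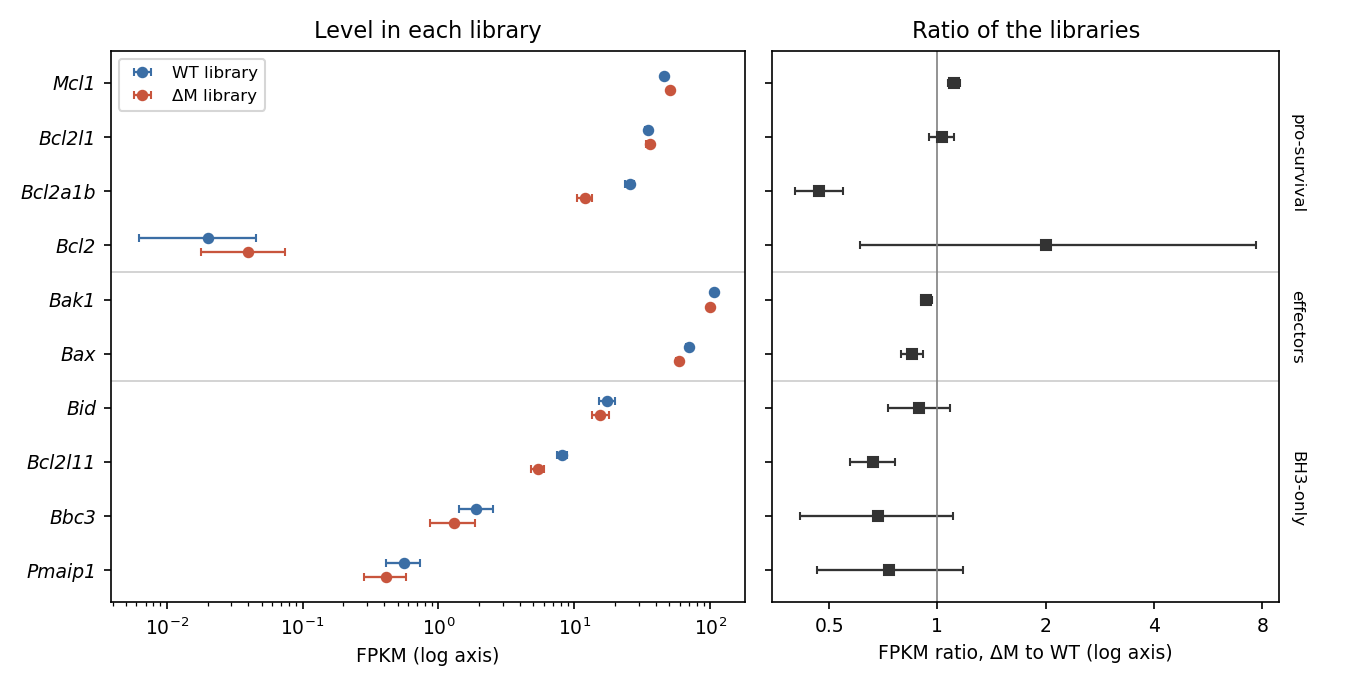
Levels of the 10 genes in FPKM (left, log axis) and ratio of ΔM to WT (right, log axis). Points are the values of the single WT and ΔM libraries and bars are 95% counting intervals. *Bcl2a1b* stands apart with a ratio of 0.470, and the intervals of *Bcl2*, *Bbc3* and *Pmaip1* are wide because few fragments stand behind them at the median transcript length.

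Among the pro-survival genes, *Mcl1* and *Bcl2l1* were nearly level between the libraries, whereas *Bcl2a1b* was lower in ΔM and *Bcl2* was close to absent from both. *Mcl1* (ENSMUSG00000038612, chr3:95462643-95467099, plus strand, mm9) had a WT level of 45.5 FPKM (44.3 to 46.8) and a ΔM level of 50.6 FPKM (49.2 to 51.9). The ratio of ΔM to WT was 1.11 (1.07 to 1.15), a difference larger than the counting error but small beside the spread of other genes. *Bcl2l1* (ENSMUSG00000007659, chr2:152593052-152657464, minus strand) had a WT level of 34.8 FPKM and a ΔM level of 35.8 FPKM, and its ratio was 1.03 (0.949 to 1.12). Its libraries could therefore not be distinguished at this depth, and the interval leaves room for a difference of at most 1.12 times in the upward direction.

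*Bcl2a1b* (ENSMUSG00000089929, chr9:89094047-89102665, plus strand) encodes a copy of A1. It had a WT level of 25.5 FPKM (23.5 to 27.7) and a ΔM level of 11.98 FPKM (10.5 to 13.6), from about 582 and 242 fragments. Its level was 2.13-fold lower in ΔM, with a ratio of 0.470 (0.402 to 0.546). In bulk RNA, fewer cells that express a gene and less RNA of it per cell cannot be told apart, which holds for this gene and for all that follow. *S100a8* was higher in ΔM over the same pair of libraries, as given above, and *Lyz2*, the gene of lysozyme M and the locus that drives LysMCre, had a WT level of 2481 FPKM and a ΔM level of 1356 FPKM, while the sum of the other macrophage markers was nearly level. Whether the LysMCre allele itself had a part in the level of *Lyz2* was not tested. Whether a shift in cell state or makeup of the cultures had a part in the level of *Bcl2a1b* was not tested either.

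*Bcl2* (ENSMUSG00000057329, chr1:108434755-108610851, minus strand), the gene after which the family is named, had a WT level of 0.02 FPKM and a ΔM level of 0.04 FPKM. These values stand for about 5 and 9 fragments over a transcript of 7191 nt. The interval of the ratio ran from 0.610 to 7.70, so that no difference could be seen at this depth. Of the summed FPKM of the 4 pro-survival genes, *Mcl1* held 43.0% in WT and 51.4% in ΔM, *Bcl2l1* held 32.9% and 36.4%, and *Bcl2a1b* held 24.1% and 12.2%.

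Both effectors were abundant and slightly lower in ΔM. *Bak1* (ENSMUSG00000057789, chr17:27156755-27165954, minus strand) had a WT level of 107 FPKM (104.6 to 109.6) and a ΔM level of 99.7 FPKM (97.1 to 102.3), a ratio of 0.931 (0.899 to 0.964). *Bax* (ENSMUSG00000003873, chr7:52717065-52722268, minus strand) had a WT level of 69.6 FPKM (66.6 to 72.8) and a ΔM level of 59.3 FPKM (56.2 to 62.3), a ratio of 0.851 (0.794 to 0.910). The counting intervals of WT and ΔM did not overlap for either gene. The share of all genes whose intervals do not overlap was not computed, so that this does not set the 2 effectors apart. *Bak1* shares 357 nt of its exons with *Ggnbp1* on the opposite strand, which had a WT level of 4.58 FPKM and a ΔM level of 5.14 FPKM, and whether the counting used strand is not given in the sources used here.

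All 4 BH3-only genes had a lower value in ΔM. The difference was larger than the counting error for *Bcl2l11*, whereas for *Bid* and *Bbc3* this turned on the transcript length behind the interval. *Bcl2l11* (ENSMUSG00000027381, chr2:127951774-127988283, plus strand), the gene of BIM, had a WT level of 8.09 FPKM (7.42 to 8.82) and a ΔM level of 5.36 FPKM (4.78 to 5.99). It was 1.51-fold lower in ΔM on the deposited FPKMs, with a ratio of 0.663 (0.573 to 0.764). *Bid* (ENSMUSG00000004446, chr6:120841948-120866871, minus strand), whose protein is cut by caspase-8 after death receptor signals, had a WT level of 17.4 FPKM and a ΔM level of 15.6 FPKM, with a ratio of 0.892 (0.731 to 1.08). With its longest annotated transcript (2415 nt) in place of the median one, the interval of the ratio narrowed to 0.824 to 0.965 and left out 1. It shares 628 nt of exon with *Bcl2l13* on the opposite strand, a gene with a WT level of 0.70 FPKM and a ΔM level of 0.69 FPKM.

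The p53 targets *Bbc3* and *Pmaip1* were low in both libraries. *Bbc3* (ENSMUSG00000002083, chr7:16894965-16903554, plus strand) had a WT level of 1.89 FPKM (1.41 to 2.53) and a ΔM level of 1.29 FPKM (0.871 to 1.87). Its ratio was 0.683 (0.415 to 1.104), from about 48 and 29 fragments. With the longest transcript (1814 nt) these became 112 and 68 fragments, the interval ran from 0.499 to 0.933, and the intervals of the libraries still overlapped. *Pmaip1* (ENSMUSG00000024521) had a WT level of 0.56 FPKM (0.412 to 0.731) and a ΔM level of 0.41 FPKM (0.284 to 0.579), a ratio of 0.732 (0.464 to 1.18). For *Pmaip1* a difference between the libraries was not detectable at this depth.

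To place the genes beside the rest of the transcriptome, 1 FPKM was added to each value and the ΔM level was divided by the WT level on the log2 scale, in genes whose mean level was 1 FPKM or more. This scale understates the change of low genes. Of the 10 genes, 8 reached the minimum and *Bcl2* and *Pmaip1* did not. Past 1.5-fold, 0 of the 8 were higher and 1, *Bcl2a1b*, was lower in ΔM, with a log2 ratio of -1.03. Among all 10765 genes tested, 11.2% were higher and 7.51% lower past 1.5-fold, and among protein-coding genes 4.83% and 5.36%. A count of 1 in 8 is thus close to what the background share would give. *Bcl2a1b* was also the 1 gene of the 8 lower past 2-fold, with 0 higher, where 3.61% of all genes were lower and 5.69% higher and, of protein-coding genes, 1.32% were lower and 1.19% higher. It stood at percentile 1.24 of protein-coding ratios.

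The other 7 lay within the 5th to 95th percentile of protein-coding genes, which ran from -0.60 to 0.58. *Bcl2l11* came nearest to the lower end at -0.52, so that it was past 1.5-fold on the deposited values and short of it after 1 FPKM was added. *Bbc3* was at -0.34 and *Bax* at -0.23. *Mcl1* at 0.15, *Bcl2l1* at 0.04, *Bak1* at -0.10 and *Bid* at -0.16 lay between the quartiles of protein-coding genes, -0.19 and 0.18. The median of the 8 genes was -0.19, beside 0.03 over all genes tested. A value below 0 was found for 6 of the 8, beside 45.9% of all genes and 50.2% of protein-coding genes.

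Summed by role, levels were a little lower in ΔM in each of the 3 groups of genes. The 4 pro-survival genes together had a WT level of 105.9 FPKM and a ΔM level of 98.4 FPKM, a ratio of 0.929. *Mcl1* and *Bcl2l1* alone went from 80.4 to 86.4 FPKM, a ratio of 1.075, so that the lower sum in ΔM came from *Bcl2a1b*. The sum of *Bax* and *Bak1* was 176.7 FPKM in WT and 158.9 FPKM in ΔM, a ratio of 0.899. The 4 BH3-only genes were at 27.98 and 22.6 FPKM, a ratio of 0.808. Pro-survival transcripts stood to effector transcripts at 0.599 in WT and 0.619 in ΔM, and to BH3-only transcripts at 3.78 and 4.35. The former direction turned when the near-identical copies *Bcl2a1a* and *Bcl2a1d* were added to the pro-survival genes, at 0.752 in WT and 0.720 in ΔM, while the latter stayed upward at 4.75 and 5.06. Transcript sums do not give the balance of proteins, which was not measured.

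*Bcl2a1b* belongs to a cluster of near-identical copies, and its values have to be read together with theirs. The transcripts of *Bcl2a1b* and *Bcl2a1d* agree at 99.0% of aligned positions, those of *Bcl2a1a* and *Bcl2a1d* at 98.8%, and those of *Bcl2a1a* and *Bcl2a1b* at 98.04%. Over a coding sequence of 519 nt, 12 positions differ between the 3 copies, and the longest stretch they share is 217 nt. The first 30 nt of each coding sequence are shown from the mm9 assembly because 5 of the 12 positions lie there, and capitals mark the positions at which the copies differ.
Bcl2a1a: atgGctgagtCTgagCtcatgCatatccac
Bcl2a1b: atgGctgagtACgagTtcatgTatatccac
Bcl2a1d: atgTctgagtACgagTtcatgTatatccac

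The authors kept uniquely mapped reads only. Of the 619 windows of 100 bases within the exons of *Bcl2a1b*, 405 (65.4%) have no exact copy elsewhere in the genome. For *Bcl2a1a* the share was 51.5% and for *Bcl2a1d* 36.1%, whereas it was 100% for each of the other 9 genes described here. Such windows stand for single reads of 100 bases. The paper describes paired-end sequencing for this kind of library, and whether a unique mate could place a repeated read was not examined. The FPKMs of the 3 copies may therefore rest on part of their exons, so that their levels may be underestimated. Their order among themselves and the place of *Bcl2a1b* next to *Bcl2l1* and *Bid* in the order of levels are therefore uncertain. *Bcl2a1d* (chr9:88618126-88626708, minus strand) had a WT level of 20.5 FPKM (18.7 to 22.4) and a ΔM level of 11.2 FPKM (9.83 to 12.8), a ratio of 0.547 (0.466 to 0.644). *Bcl2a1a* (chr9:88851738-88857254, plus strand) had a WT level of 6.39 FPKM (5.41 to 7.54) and a ΔM level of 4.75 FPKM (3.85 to 5.81), a ratio of 0.743 (0.568 to 0.967). All 3 copies had a lower value in ΔM, and the intervals of the libraries overlapped for *Bcl2a1a* only. Near-identical copies may not be separate observations, and the share of all genes whose intervals do not overlap was not computed.

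The sum of the 3 copies was 52.4 FPKM in WT and 27.96 FPKM in ΔM, 1.87-fold lower. This sum also leaves out the discarded reads, and the copies enter it with unlike shares of unique sequence. On the log2 scale with 1 FPKM added, the sum was at -0.88. With this sum in place of *Bcl2a1b*, the count of genes past 1.5-fold stayed at 0 higher and 1 lower. *Bcl2a1b* also shares 401 of its 817 exonic nt (49.1%) with an annotated transcript of *Mthfs*, a gene of folate metabolism, on the same strand. *Mthfs* had a WT level of 4.47 FPKM and a ΔM level of 3.11 FPKM, both below *Bcl2a1b*, and reads of the shared stretch cannot be told apart. *Bcl2a1c*, which has no exact copies, had a WT level of 1.33 FPKM and a ΔM level of 0.88 FPKM, with overlapping intervals.

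**Figure D2:**
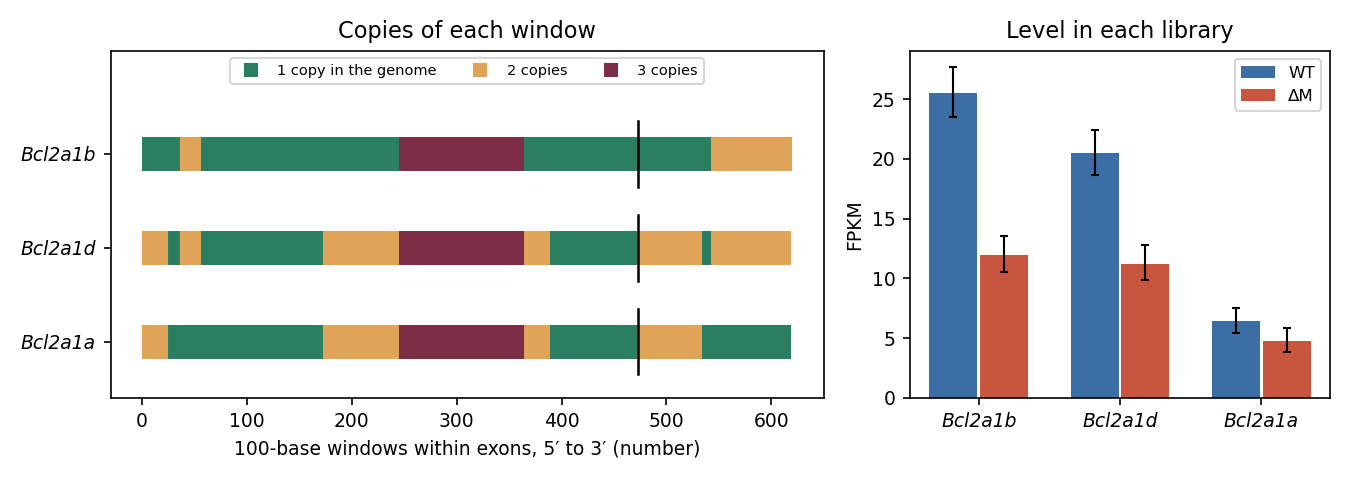
Left, each 100-base window within exons of *Bcl2a1b*, *Bcl2a1d* and *Bcl2a1a*, in order from 5′ to 3′ (horizontal axis, window number) and colored by the number of its exact copies in the genome, with a black line at the exon junction. Right, FPKM of each copy in the single WT and ΔM libraries with 95% counting intervals as bars; the ΔM value is below the WT value for each copy.

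As features that the choice of genes did not use, AU-rich motifs were searched in the longest annotated 3′ UTR of each gene, on the transcript strand. UAUUUAU is the core of TTP binding, and AUUUA is the shorter element contained in it, so that every match to the former is also a match to the latter. UAUUUAU was found in 5 of the 10 genes. The 3′ UTR of *Mcl1* (2353 nt) holds 3 matches, that of *Bcl2* (5086 nt) 2, that of *Bcl2l11* (4218 nt) 2, that of *Bcl2l1* (1481 nt) 1 and that of *Pmaip1* (2177 nt) 4. AUUUA matches numbered 8 in *Mcl1*, 15 in *Bcl2*, 6 in *Bcl2l11*, 1 in *Bcl2l1* and 4 in *Pmaip1*. AUUUA alone was found once in *Bcl2a1b*, whose 3′ UTR is only 147 nt long, and in none of *Bax*, *Bak1*, *Bid* and *Bbc3*. The first UAUUUAU of 4 of the genes is shown in its surroundings, from mm9, with the motif in capitals, to set the survival genes beside the gene of BIM.
Mcl1: gaaaacaugugUAUUUAUgaagguggacuu
Bcl2: aaaaaaagauuUAUUUAUuuaagacaguuc
Bcl2l1: aagcgugucugUAUUUAUgugugaggagcu
Bcl2l11: uauauuuugacUAUUUAUuagauuagaaag

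The share of 3′ UTRs that hold such motifs depends on their length. Over all 20007 genes with an annotated 3′ UTR, 23.8% hold UAUUUAU and 61.3% hold AUUUA. Among 3′ UTRs within 20% of the length of that of *Mcl1*, UAUUUAU was present in 40.0%. For the lengths of *Bcl2*, *Bcl2l11*, *Bcl2l1* and *Pmaip1* the shares were 61.8%, 57.1%, 31.1% and 38.7%. The lack of AUUUA in *Bak1*, *Bid* and *Bbc3* contrasts with 79.2%, 83.7% and 70.8% of 3′ UTRs of like length that hold it. At the short length of *Bax* (167 nt) only 22.2% hold it, so that its lack there is common. Log2 ratios of ΔM to WT lay on either side of 0 among genes with UAUUUAU, at 0.15 in *Mcl1*, 0.04 in *Bcl2l1* and -0.52 in *Bcl2l11*, and below 0 in the 5 tested genes that lack it, at -1.03 in *Bcl2a1b*, -0.34 in *Bbc3*, -0.23 in *Bax*, -0.16 in *Bid* and -0.10 in *Bak1*. With so few genes this is a description only, and a motif match is not a bound site.

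**Figure D3:**
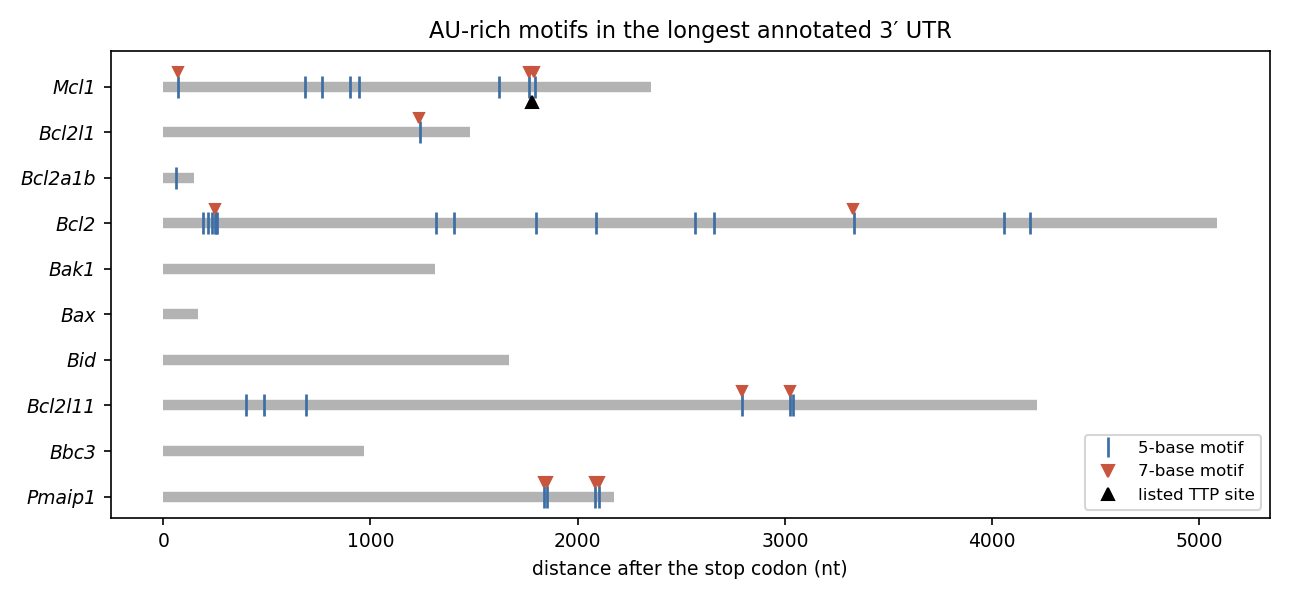
Longest annotated 3′ UTR of each gene as a gray line, drawn to scale in nt from the stop codon. Blue ticks are AUUUA, red triangles are UAUUUAU and the black triangle is the listed TTP site read for *Mcl1*. *Bax*, *Bak1*, *Bid* and *Bbc3* hold neither motif.

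Positions of TTP sites from PAR-iCLIP, a crosslinking assay that maps where a protein touches RNA, were read from the supplementary lists as sequences only. Sites longer than 30 nt and entries that were cut short were left out, so that these genes may hold further listed sites. Of the 10 genes, *Mcl1* has a site in the 3′ UTR at 6 h of LPS, and *Bcl2l1* has one in intron 2 of most annotated transcripts that span it. The *Mcl1* site spans 9 nt at chr3:95466525-95466533 (mm9, plus strand), in exon 4 of 4, and starts 1779 nt after the stop codon, between UAUUUAU matches of that 3′ UTR. The *Bcl2l1* site spans 4 nt at chr2:152619803-152619806 on the minus strand. At 3 h of LPS, introns of *Bcl2a1b* and *Bcl2a1a* hold listed sites in a simple repeat. The longest of those read in *Bcl2a1b* spans 18 nt of intron 1 at chr9:89100008-89100025 on the plus strand. The sites are shown in sense orientation with the site in capitals, since the site of *Mcl1* lies next to an AUUUA element, which the windows of the intronic sites lack.
Mcl1: ttatccttgaTCATAGTTTgcttatttatg
Bcl2l1: aattcatgtgccaCCACaactggctctgct
Bcl2a1b: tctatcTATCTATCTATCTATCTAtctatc

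*Mcl1*, with the 3′ UTR site shown, had a ratio of ΔM to WT of 1.11, and *Bcl2l1*, with the intronic site shown at 6 h, one of 1.03. FPKMs are levels at a single time of the response to LPS, and decay rates were not measured in these libraries.

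The surrounding death pathway was described with 5 lists of 58 further genes, of which 42 reached the minimum mean of 1 FPKM. Past 1.5-fold, 2 of the 42 were higher and 2 lower in ΔM, shares close to or below the background given above, and their median log2 ratio was -0.02. The log2 ratio was above 0 for 19 and below 0 for 23. Among the other BCL2 family genes, 8 of 16 were tested, with a median of 0.20. *Bcl2l12*, a BCL2-related gene, had a WT level of 1.63 FPKM (1.14 to 2.28) and a ΔM level of 3.74 FPKM (2.93 to 4.74) and was thus higher in ΔM, with a log2 ratio of 0.85. It shares 88 nt of exon with *Irf3* on the opposite strand, which had a WT level of 7.34 FPKM and a ΔM level of 7.71 FPKM. *Bcl2l12* also shares 572 nt (28.9% of its exonic nt) with a lincRNA on the opposite strand. That lincRNA had a WT level of 0.18 FPKM and a ΔM level of 0.06 FPKM. *Bcl2a1d* was the gene past 1.5-fold downward. *Bnip3*, a mitophagy receptor, had a WT level of 4.69 FPKM and a ΔM level of 7.00 FPKM with overlapping intervals.

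Of the apoptosome, mitochondrial release and caspase genes, 12 of 13 were tested, with a median of 0.20 and values above 0 for 8. *Casp9*, the initiator caspase of the apoptosome, had a WT level of 3.16 FPKM (2.61 to 3.80) and a ΔM level of 5.34 FPKM (4.58 to 6.22), a log2 ratio of 0.61. *Cycs*, the gene of somatic cytochrome c, had a WT level of 1.53 FPKM (1.24 to 1.87) and a ΔM level of 0.73 FPKM (0.525 to 0.9998), a log2 ratio of -0.55. *Cycs* has many processed pseudogenes, and how far its reads map uniquely was not examined. Of the inhibitors of apoptosis, 6 of 8 were tested with a median of 0.01 and none past 1.5-fold. Of the death receptor genes, 7 of 9 were tested with a median of -0.10. *Fas*, the death receptor of FAS ligand, had a WT level of 20.7 FPKM (19.1 to 22.4) and a ΔM level of 13.3 FPKM (11.9 to 14.7), a log2 ratio of -0.60. Of the regulators of BCL2 family genes and of MCL1 turnover, 9 of 12 were tested, with a median of -0.02 and none past 1.5-fold.

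**Figure D4:**
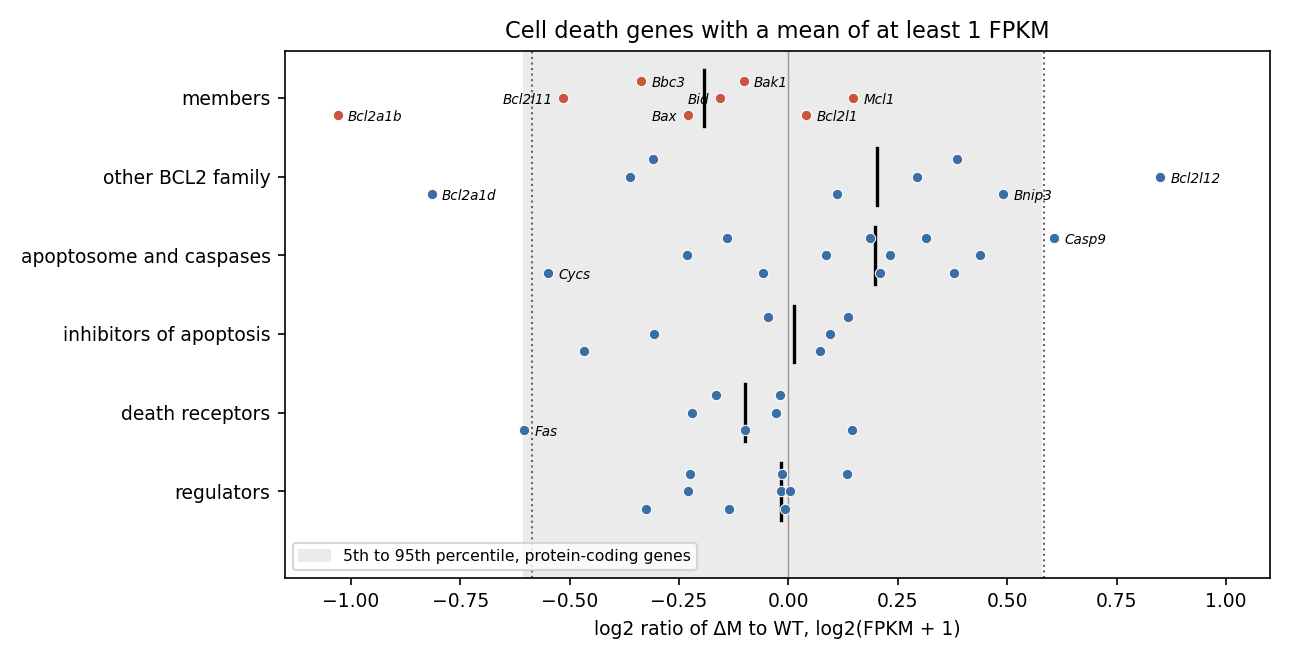
Log2 ratio of ΔM to WT, after adding 1 FPKM, for each gene that reached the minimum mean in the 10 genes (red) and in the 5 lists of the death pathway (blue). Black bars are medians, dotted lines are 1.5-fold, and the gray band is the 5th to 95th percentile of protein-coding genes; *Bcl2a1b* and *Bcl2a1d* lie farthest to the left, and *Bcl2l12* farthest to the right.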

How the data were processed

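The authors used Cutadapt for trimming and Segemehl for alignment to mm9, discarded reads with several matches, and ran Cufflinks over the exons of Ensembl. What they deposited is 1 FPKM with 2 decimals per gene and library, and both columns were assigned by name. As they are not counts, no count model was used. The annotation was GENCODE M1 on NCBIM37, the same build, which held 37039 of 37451 genes.

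Depth was estimated as the number of fragments under which low FPKMs of single-transcript genes of 500 to 1500 nt are whole multiples of 1 fragment, within 0.006 FPKM. This held for 94.0% of 1428 genes in WT and 94.4% of 1278 in ΔM, against 29.3% and 25.9% by chance. The chance shares are those at the best fit and make no allowance for the search over depths and fragment lengths. The largest error in simulated libraries was 0.66%. These were made with the same formula that was fitted, so that this error does not cover departures of the real libraries from it. Counting intervals (95%, Poisson for FPKM, exact Clopper-Pearson for ratios) used the median annotated transcript length. Log2 ratios used a pseudocount of 1 FPKM and a minimum mean of 1 FPKM.

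The 10 genes, the pathway lists and the markers were chosen with earlier results of these data known. Besides the 10 genes, those named are *Zfp36*, the *Bcl2a1* copies, and the 3 largest rises and falls over the pathway genes that reached this minimum. Overlapping genes and *Lyz2* and *S100a8* were named after their values were seen. Alternatives covered the pseudocount, scaling, the minimum, the fold, the transcript length and the highest gene of a role. Protein sequences were not analysed here. The software was Biopython 1.88, matplotlib 3.10.9, scipy 1.17.1, pandas 2.3.3 and numpy 2.4.6 under Python 3.11.15.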

Additional observations from a re-analysis of the deposited data

How the results depend on the processing

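No replicate could be left out, as each genotype has 1 library. No paired analysis was possible because each genotype has 1 library and no test was run. Of 90 comparisons with an alternative, 75 stayed within the counting error or within 1.5 times the count, 14 moved and 1 reversed. The count of the 10 genes past 1.5-fold stayed at 0 higher and 1 lower under the alternatives run, except with a pseudocount of 0.1 FPKM, where 2 were lower because *Bcl2l11*, at -0.58, was exactly at 1.5-fold. *Bcl2l11* was at -0.34 with 5 FPKM. With 0.1 FPKM, *Bcl2* was at 0.22 and *Pmaip1* at -0.37. Of the pathway genes, 2 higher past 1.5-fold became 0 with a pseudocount of 5 FPKM, with a minimum of 10 FPKM and past 2-fold. The 2 lower became 1 with a pseudocount of 5 FPKM, 1 with ratios centred on protein-coding genes and 0 past 2-fold. Without its highest gene, the ratio of the pro-survival sum moved from 0.929 to 0.793 and that of the effectors from 0.899 to 0.851. The ratio of the BH3-only sum went from 0.808 to 0.670. This shift was smaller than the median half-width of the ratio intervals of the single BH3-only genes. The other sums by role were judged in the same way, and the counting error of a sum was not computed. With the longest annotated transcript, 0 neighbouring pairs overlapped in ΔM in place of 1, and the ratio interval left out 1 for 7 of the 10 genes in place of 5, with *Bid* and *Bbc3* added. The share of all genes whose ratio interval leaves out 1 was not computed, so that neither count sets these genes apart from the rest. Alternatives that sum the *Bcl2a1* copies and the ratio intervals with the longest transcript were chosen after seeing the data. With *Bcl2a1a* and *Bcl2a1d* included the pro-survival ratio was 0.861, the ratio of ΔM to WT of pro-survival over effectors turned from 1.03 to 0.958 and that of pro-survival over BH3-only moved from 1.15 to 1.07. Depth limits *Bcl2* and *Pmaip1*, at 50 fragments or fewer, and *Bbc3* unless its longest transcript is assumed.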
